A study of Mus musculus with 2 samples.

Results

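The genes of cholesterol synthesis and uptake described here are 28 genes listed by name, from the first condensation of acetyl-CoA units to the receptors that take up lipoproteins. They were chosen by symbol. Of the 28, 25 had at least 1 probe set carrying that symbol alone in the platform annotation, among 18193 genes so named, and all 25 were bright enough on the arrays to count as measured. No probe set was matched to Acat2, Por or Soat1, which were not analysed here. The list does not hold every enzyme of the path.

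The study measured total RNA of mouse eye cups on Affymetrix Mouse 430 2.0 arrays, on which sets of short probes report the level of a transcript. Eye cups in general hold retina, pigment epithelium, choroid and sclera, and are left once cornea, lens and optic nerve have been cut away. Here, 7 of 10 lens markers and 5 of 6 markers of cornea and conjunctiva were still bright enough to count as measured. The 2 groups were wild-type mice and Mfsd2a KO mice, both at postnatal day 13, and RNA of 6 animals per genotype was pooled in equal amounts and read on 1 array, with a RIN (RNA integrity number) of at least 7.0. Mfsd2a encodes a membrane transporter that brings lysophosphatidylcholine carrying docosahexaenoic acid into brain and eye. The labels name no strain, sex, treatment or deleted part of the gene. With 1 pool per genotype there is no spread between animals, so every difference below is one between 2 pools, and none was tested.

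Cells make cholesterol from acetyl-CoA through mevalonate, which is turned into isoprenoid units, joined to squalene and closed to the ring of lanosterol. A series of late enzymes then strips methyl groups and shifts double bonds until cholesterol results. The transcription factor SREBP2 switches many of these genes on together when sterol in the endoplasmic reticulum is low. The retina both makes cholesterol and takes it up in lipoproteins, and its Mueller glia and pigment epithelium take part in supplying the photoreceptors.

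RefSeq promoter windows of assembly GRCm38.p6, reaching from 250 bases before to 50 bases after a transcript's start, were matched by symbol for 20 of the 25 measured genes. Fdps, Fdft1, Sqle, Stard4 and Npc1 were not matched. Each window was searched on both strands for TCACNCCAC, a core of the sterol regulatory element that SREBP proteins bind, for CCAAT, the box bound by NF-Y, and for GGGCGG, the GC box bound by Sp1. The 4 windows below show the one gene in which the sterol element letters were found (Hmgcs1), the gene with the largest difference between the arrays (Lss) and the enzymes of the next steps whose windows differ in the number of CCAAT boxes (Cyp51 and Msmo1). Capitals mark matches to any of the 3 motifs, in either orientation. A CCAAT box on the opposite strand is read as ATTGG, and a GC box there as CCGCCC.
Hmgcs1, chr13:119690101-119690400, plus strand: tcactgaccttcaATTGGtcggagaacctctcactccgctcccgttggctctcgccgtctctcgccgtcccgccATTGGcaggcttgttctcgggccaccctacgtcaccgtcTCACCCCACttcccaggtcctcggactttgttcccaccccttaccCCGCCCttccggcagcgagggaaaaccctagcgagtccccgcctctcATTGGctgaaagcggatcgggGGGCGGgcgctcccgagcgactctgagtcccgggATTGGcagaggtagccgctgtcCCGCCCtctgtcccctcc
Lss, chr10:76531355-76531654, plus strand: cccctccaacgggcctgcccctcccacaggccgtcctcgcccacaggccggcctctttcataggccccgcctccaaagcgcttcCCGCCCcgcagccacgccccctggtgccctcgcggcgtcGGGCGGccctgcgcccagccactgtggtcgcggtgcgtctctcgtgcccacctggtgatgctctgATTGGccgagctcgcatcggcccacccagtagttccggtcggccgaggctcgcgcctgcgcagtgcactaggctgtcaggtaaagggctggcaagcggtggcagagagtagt
Cyp51, chr5:4104648-4104947, minus strand: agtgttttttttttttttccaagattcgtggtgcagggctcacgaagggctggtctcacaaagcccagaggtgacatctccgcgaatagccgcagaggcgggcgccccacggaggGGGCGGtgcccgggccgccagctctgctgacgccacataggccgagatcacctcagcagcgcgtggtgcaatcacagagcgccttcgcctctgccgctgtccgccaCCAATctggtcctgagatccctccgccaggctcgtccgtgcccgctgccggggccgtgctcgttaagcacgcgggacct
Msmo1, chr8:64733529-64733828, minus strand: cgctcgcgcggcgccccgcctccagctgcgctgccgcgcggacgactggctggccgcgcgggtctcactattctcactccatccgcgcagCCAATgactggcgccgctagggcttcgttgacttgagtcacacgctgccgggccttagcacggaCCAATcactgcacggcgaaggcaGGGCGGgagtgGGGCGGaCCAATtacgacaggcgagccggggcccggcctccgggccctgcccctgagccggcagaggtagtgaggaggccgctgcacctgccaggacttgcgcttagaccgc

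At least 1 CCAAT box lay in a window of 19 of the 20 genes, Lrp8 being the exception. Among all measured genes with a window, 4021 of 9368 had one, or 42.9%. The GC box was present in 17 of the 20, where 69.6% of all measured genes with a window had it. Over all 32851 windows of the same length, whatever the gene, CCAAT was present in 37.4%, GGGCGG in 35.7% and TCACNCCAC in 1.24%. TCACNCCAC was found in 1 of the 20 genes, against 1.38% of all measured genes with a window. That gene is Hmgcs1, where it starts 137 bases before the transcript start and lies between CCAAT boxes that start 176 and 45 bases before it. Other forms of the sterol regulatory element were not searched for, so a window without these letters may still hold one. The Msmo1 window holds 3 CCAAT boxes and that of Cyp51 holds 1, which starts 29 bases before the start. A match is a match of letters only, and binding was not measured here. CCAAT was present in all 7 genes with a window that were at least 1.2-fold higher on the array labelled knockout, and in 12 of the 13 that were not.

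The label was checked on the deleted gene before any direction was drawn. Mfsd2a had an intensity of 181 in wild type and 244 on the knockout-labelled array, which goes against the direction of a knockout label. Where its 1 probe set lies relative to the deletion was not analysed here, so the probe set may check nothing, and directions below are therefore given for the array labelled knockout. Intensities had been normalised by the authors and are given on a linear scale. A difference is log2 of the array labelled knockout minus log2 of the wild-type array, from the brightest probe set of each gene. A gene counted as measured when its higher value reached the median of that array over all probe sets other than the 64 Affymetrix controls, 94.2 in wild type and 93.4 in the other, called the floor below. The rod markers Sag and Gnat1 had wild-type intensities of 18137 and 16823, and the pigment epithelium marker Rpe65 read 3484, so the labelled tissue was present.

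On the array labelled knockout, many enzymes of cholesterol synthesis had slightly higher intensities, while others hardly differed. Tm7sf2 (0.014), Ggps1 (0.035), Lbr (0.071) and Ebp (0.087) were under 0.089, the SD between probe sets of a gene described below. Of the 25 measured genes, 23 were above 0, where 55.8% of all 11568 measured genes were, and Npc2 and Vldlr were the 2 below 0. The size that counts here is 1.2-fold, a log2 difference of 0.26. Of the 25 genes, 10 were at least 1.2-fold higher, or 40.0%, against a background of 1.79% of all measured genes. None was at least 1.2-fold lower, against 1.17% of all measured genes. The differences were small in size: 2 of the 25, Lss and Dhcr7, were at least 1.3-fold higher (0.64% of all measured genes) and 0 were at least 1.5-fold higher (0.138%). At the smaller size of 1.1-fold, 15 were higher (9.83%) and 0 lower (6.6%). At 1.3-fold and 1.5-fold, 0 were lower (0.311% and 0.0864%).

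The median difference of the 25 genes was 0.20, and that of all measured genes was 0.014. Central 95% limits of all measured genes were -0.21 and 0.23, and 11 of the 25 genes lay above the upper one. All 19 measured enzymes were above 0, with a median of 0.21. When the median of all genes was subtracted, 18 of the 19 were, with Tm7sf2 at 0. The error set beside single genes is technical: the SD of the differences between probe sets of the same gene was 0.089 over 5201 genes with at least 2 above the floor. Over the 14 genes described here that had at least 2, it was 0.10. This SD leaves out any shift that the probe sets of a gene share, so it measures no error between arrays or pools. Spike-in probe sets, given below, are another technical measure. Fewer cells of a type and less RNA per cell cannot be told apart in RNA of a whole eye cup.

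**Figure D1:**
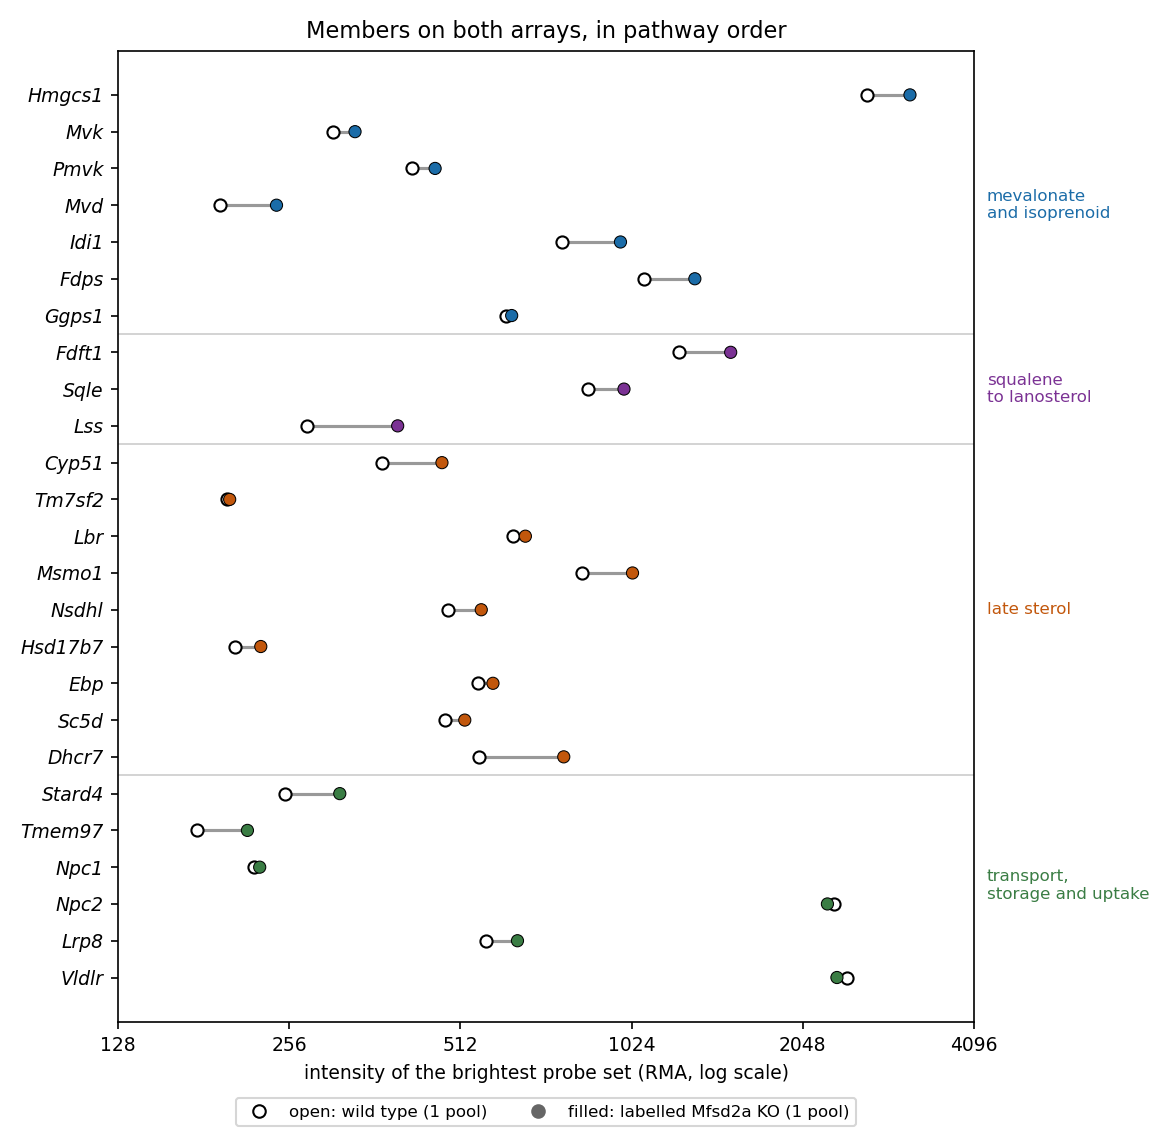
Intensity of the brightest probe set (log axis) of each of the 25 measured genes on the wild-type array (open) and the array labelled knockout (filled), in pathway order and coloured by step; each point is 1 pool of 6 animals. The longest bars are those of Lss (275 and 397) and Dhcr7 (551 and 778), and the filled point lies left of the open one for Npc2 and Vldlr.

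The mevalonate and isoprenoid steps had 7 measured genes, all above 0, 3 of them past 1.2-fold, and their median was 0.25. Hmgcs1 encodes the synthase that makes hydroxymethylglutaryl-CoA. Its intensity was 2660 in wild type and 3163 on the array labelled knockout, the order kept for all pairs of values below, a difference of 0.25, just short of 1.2-fold, in a probe set marked _x_at (prone to cross-hybridise). Its 3 dimmer probe sets above the floor differed by 0.28 to 0.31, and each of them passed that size. The fifth lay under the floor at 32.4 and 39.4, so its difference of 0.28 was given no weight. Of the 11 probe sets under the floor among the genes described here, 5 were above 0 and 5 below, with a median of 0.

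The mevalonate kinase gene Mvk read 305 and 334, a difference of 0.13, and its other probe set differed by 0.052. The gene of the next kinase, Pmvk, read 421 and 462, a difference of 0.13 in its 1 probe set. Both differences were under 1.2-fold and above the technical SD between probe sets of 0.089. Mvd encodes the decarboxylase that makes isopentenyl pyrophosphate, the basic isoprenoid unit. It read 193 and 243, a difference of 0.33, in a probe set marked _s_at (shared with other transcripts), and its other probe set, at 170 and 203, differed by 0.26 and fell just short of 1.2-fold.

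Idi1, the isomerase that supplies the reactive partner of that unit, read 774 and 979, a difference of 0.34. Its other probe set was dimmer and differed more, reading 240 and 378, a 1.57-fold difference. Fdps joins the units to farnesyl pyrophosphate, the branch point from which sterols and other isoprenoids are made. It read 1077 and 1323, a difference of 0.30, while its second probe set was far under the floor at 7.16 on both arrays. Ggps1 leads away from sterols, to the geranylgeranyl groups that anchor proteins in membranes. It read 615 and 630, a difference of 0.035, and its 4 probe sets ran from -0.021 to 0.15.

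From squalene to lanosterol, all 3 genes were above 0, 2 of them past 1.2-fold, and their median was 0.30. Fdft1, squalene synthase and the first enzyme committed to sterols, read 1241 and 1530, a difference of 0.30, also in an _x_at probe set. Its second bright probe set read 923 and 1112 and differed by 0.27. The remaining 2 probe sets of Fdft1 lay under the floor, at 69.4 and 60.3 and at 68.5 and 58.3, and differed by -0.20 and -0.23, against the bright ones. With the mean of all 4 the gene differed by 0.034.

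Sqle, squalene epoxidase, read 858 and 993, a difference of 0.21 that did not reach 1.2-fold. Lss closes squalene epoxide to lanosterol. It read 275 and 397, a difference of 0.53 or 1.44-fold, the largest of the 25 genes and rank 19 from the top of all measured genes. A second probe set at 229 and 260 differed by 0.18, and the third, under the floor at 53.7 and 52.7, by -0.027. The size for Lss therefore depended on the probe set, with a mean of 0.23 over the 3.

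The late sterol steps had 9 measured genes, all above 0, 3 of them past 1.2-fold, and their median was 0.15. Cyp51, the cytochrome that removes the first methyl group from lanosterol, read 373 and 475, a difference of 0.35. Its other probe sets differed by 0.52, at 157 and 226, and by 0.41 under the floor. The 2 above the floor thus passed 1.2-fold. The double bond that Cyp51 leaves is reduced by either of a pair of enzymes, Tm7sf2 and Lbr, the second of which is also a receptor of the inner nuclear membrane that holds chromatin. Tm7sf2 read 199 and 201, a difference of 0.014. Lbr read 634 and 666, a difference of 0.071. They differed from each other by 0.057, less than the technical spread between probe sets, and neither came near 1.2-fold.

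The other methyl groups are removed by Msmo1, Nsdhl and Hsd17b7 in turn. Msmo1, the oxidase, read 838 and 1028, a difference of 0.29 that was the smallest of the 10 genes past 1.2-fold, just as the 0.25 of Hmgcs1 was the largest short of it. Nsdhl, the dehydrogenase, read 486 and 557, a difference of 0.20. Hsd17b7, the ketone reductase, read 205 and 228, a difference of 0.15, in an _x_at probe set. Its other 2 above the floor differed by 0.027 and 0.030.

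Ebp, which shifts the ring double bond, read 550 and 584, a difference of 0.087. Sc5d, which introduces another double bond, read 480 and 521, a difference of 0.12, and its second probe set above the floor differed by 0.11. Dhcr7, the reductase that makes cholesterol from its direct precursor, read 551 and 778, a difference of 0.50 or 1.41-fold. It was second in size after Lss, at rank 26 of all measured genes, and rests on 1 probe set. The late steps thus held both the second largest difference of the list and, in Tm7sf2, the smallest of any enzyme.

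**Figure D2:**
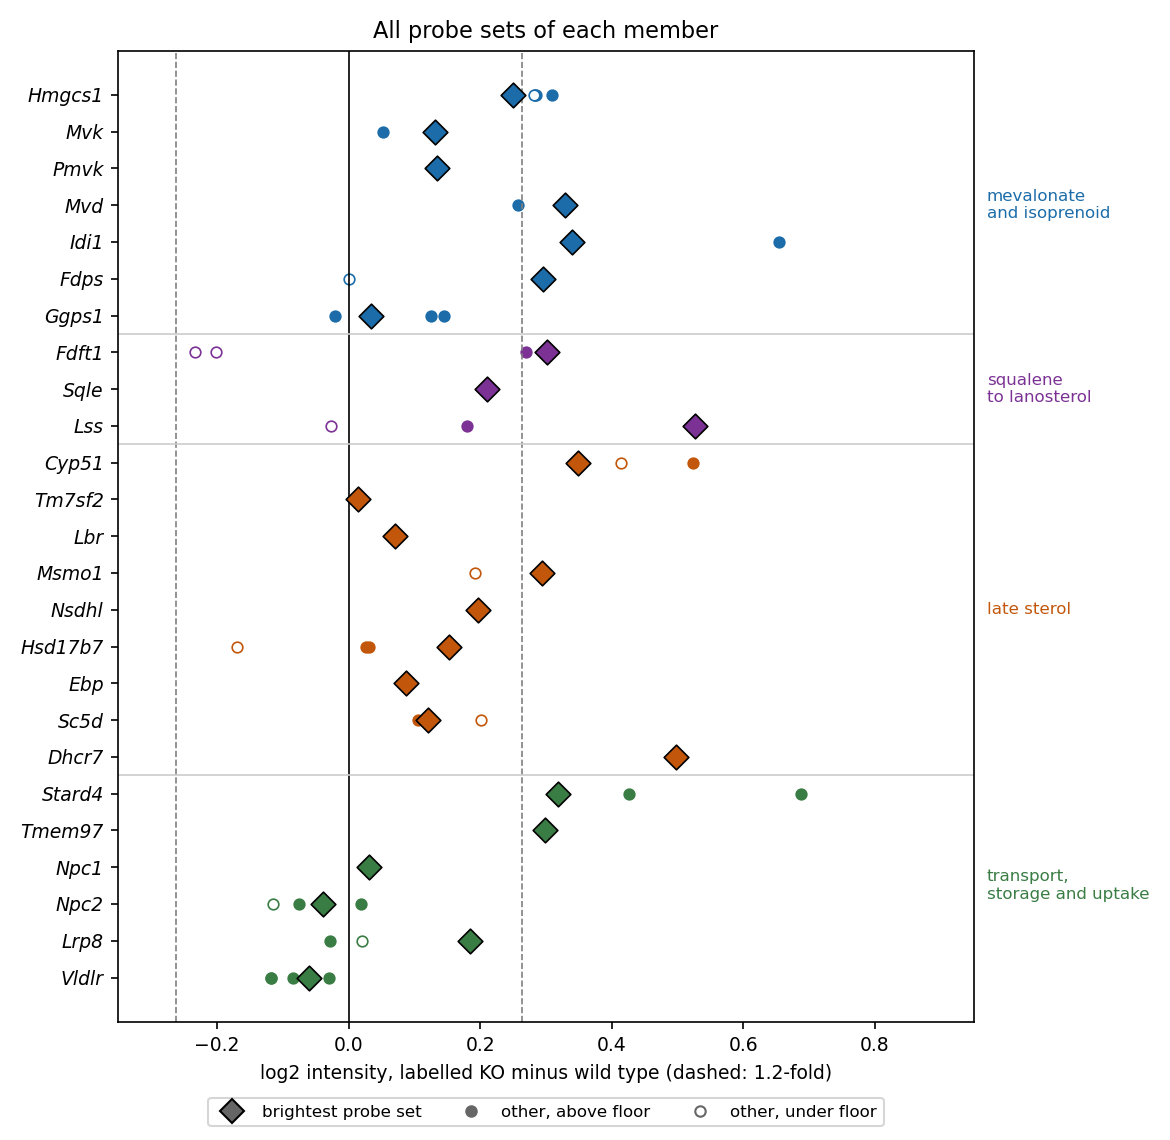
Difference in log2 intensity (array labelled knockout minus wild type) for all 61 probe sets of the 25 genes; diamonds are the brightest probe set of a gene, filled circles others above the floor, open circles others under it, and dashed lines mark 1.2-fold. Filled points of Hmgcs1, Mvd, Idi1, Fdft1, Cyp51 and Stard4 cluster near or past the right dashed line, those of Vldlr all lie left of 0, and the open circles of Fdft1 lie left of its filled ones.

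Genes of transport, storage and uptake were mixed, with 6 measured, 4 above 0 and a median of 0.11. The 2 at least 1.2-fold higher were Stard4 and Tmem97. Stard4, a soluble carrier that moves sterol between membranes, read 252 and 314, a difference of 0.32. Its other 2 probe sets differed by 0.69, at 125 and 202, and by 0.43, at 71.5 and 96.1. The last of them was under the floor in wild type and above it only on the array labelled knockout. Tmem97, a protein of the endoplasmic reticulum that acts on the level of Npc1, read 176 and 216, a difference of 0.30 in its 1 probe set. Neither is an enzyme of the path.

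Npc1 and Npc2 pass cholesterol out of the lysosome, one in its membrane and the other in its lumen. Npc1 read 222 and 227, a difference of 0.032. Npc2 read 2326 and 2264, a difference of -0.039, and its 3 probe sets above the floor ran from -0.076 to 0.019. Both genes thus stayed within the technical spread of 0.

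Lrp8 and Vldlr are related receptors of lipoproteins, which also receive the neuronal signal reelin. Lrp8 read 568 and 645, a difference of 0.18, but its second probe set above the floor read 333 and 327, a difference of -0.028. Vldlr read 2452 and 2353, a difference of -0.060. All 6 of its probe sets were above the floor and below 0, from -0.12 to -0.030, so the direction was shared and the size small. The brightest probe sets of the pair differed from each other by 0.24, while the median over the probe sets of Lrp8 above the floor was 0.078.

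Across probe sets, 50 of the 61 belonging to the 25 genes lay above the floor. Of these 50, 40 were above 0, against 55.9% of all named probe sets above the floor. At least 1.2-fold higher were 18 of the 50, or 36.0%, against 1.85%, and 0 were at least 1.2-fold lower, against 1.15%. The 10 genes past 1.2-fold had 17 probe sets above the floor, all 17 above 0. Of these, 15 were past that size, the exceptions being the second probe sets of Mvd and Lss. The brightest probe set of each of these 10 genes passed by the choice of the genes, so only the dimmer ones could fall short. Among the 17, a dim Stard4 probe set was above the floor only on the array labelled knockout. Among the 33 probe sets of the other 15 genes, 3 passed 1.2-fold, all of Hmgcs1, and 10 were below 0. The brightest of each of these 15 genes was short of that size by the same choice.

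**Figure D3:**
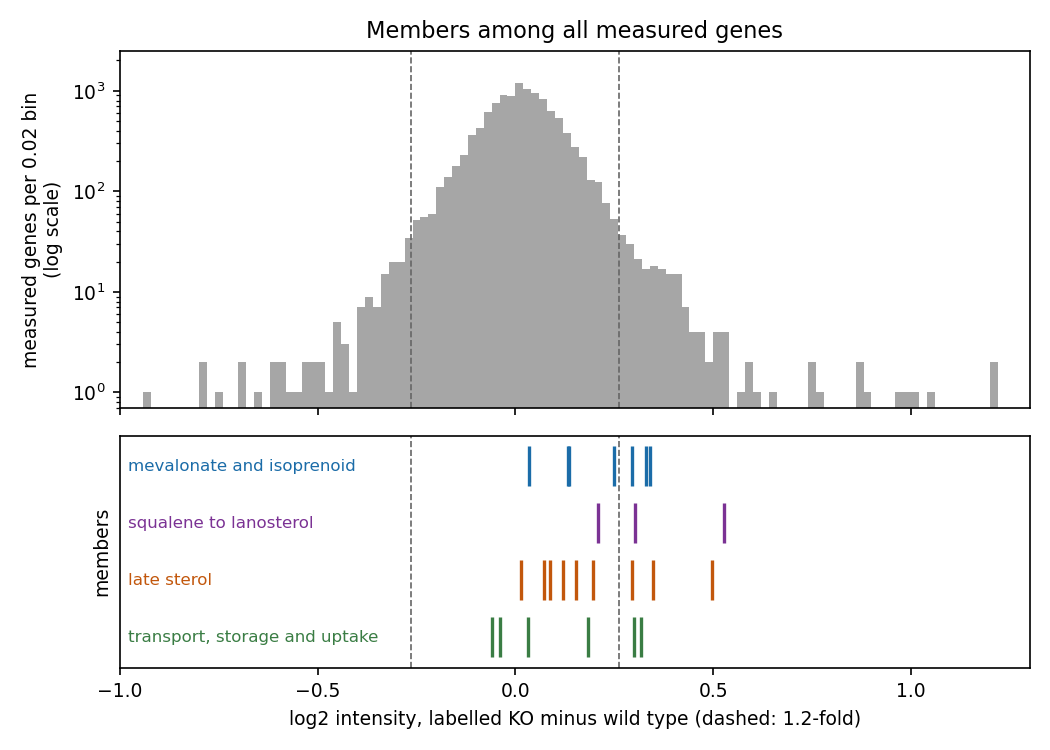
Upper panel, the number of measured genes (log axis) by difference in log2 intensity, array labelled knockout minus wild type, over 11568 genes; lower panel, 1 tick for each of the 25 genes by step, with dashed lines at 1.2-fold. The 10 ticks right of the dashed line reach 0.53, where the upper panel has few genes, and 0 ticks lie left of the other dashed line.

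Other genes of the pathway, from lists written from general knowledge with earlier results of these data known, were set beside these. Of 46 listed, 42 were measured, and 26 of these lay above 0, where 55.8% of all measured genes did. Past 1.2-fold were 0 downwards, against 1.17% of all measured genes, and 2 upwards, against 1.79%. Both belong to the 7 genes of SREBP control, whose median was 0.12. Srebf1, which encodes SREBP1, read 661 and 1117, a difference of 0.76. Insig1, which holds the SREBP complex in the endoplasmic reticulum and is itself a sterol-sensitive target, read 525 and 754, a difference of 0.52. Srebf2, the gene of SREBP2, named here after its values were seen, differed by 0.084 in its brighter probe set and by 0.51 in the other. Mbtps2, a protease that frees the SREBP proteins, differed by 0.15.

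Beyond control, differences of the neighbouring genes were smaller. The 4 genes that supply acetyl-CoA units were all above 0, where 55.8% of all measured genes were. Their median was 0.093, with Acat1, the mitochondrial thiolase, the largest at 0.17. The 4 that pass electrons to sterol enzymes had a median of 0.039, with the cytochrome gene Cyb5b at 0.13. Of the 10 measured genes that use isoprenoids for other ends, such as ubiquinone, dolichol and protein prenylation, 7 were below 0. Among all 11568 measured genes, 4908 were. The isoprenoid list had a median of -0.017, with Nus1 the farthest at -0.093. The 10 measured genes of sterol transport and lysosomal release had a median of 0.0046, and none was farther from 0 than 0.078. Among 7 measured genes of other lipoprotein receptors and their control, the median was 0.021. Mylip, the ligase that marks such receptors for destruction, read 916 and 797, a difference of -0.20. By their brightest probe sets, none of the genes in these 5 lists reached 1.2-fold in either direction, although a dimmer probe set of Acat1 above the floor differed by 0.27.

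Markers of several cell types differed between the pools as well, and their part in the cholesterol genes was not tested. Of 8 microglia markers, 7 were above 0, against 55.8% of all measured genes, and 6 were at least 1.2-fold higher, against 1.79%. The median of these markers was 0.36, with C1qa the highest at 0.45. Their intensities summed to 2465 in wild type and to 2858 in the second pool. Such sums, unlike the medians, take in listed genes under the floor. Lens markers, with 7 of 10 measured and Lim2 and Mip under the floor, had a median of 0.23, and their summed intensity was 2462 and 2881. Mueller glia markers had a median of -0.030 and a summed intensity of 22364 and 22675. Crym was at 0.41 and Slc1a3 at 0.21, while 3 of the 5 were below 0, among them Dkk3 at -0.075 and Glul at -0.041. Pigment epithelium markers were lower, with a median of -0.30 over 4 measured, and their summed intensity was 12473 and 10563.

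Myelin, a membrane rich in cholesterol, was represented by 3 measured markers of 8. Mog, Mag, Mobp and Cldn11 were under the floor on both arrays. The list had a median of -0.073 over the 3 measured, although the probe sets of Mbp above the floor ran from -2.00 to 0.14. Its intensities, those under the floor included, summed to 1871 in wild type and to 1763 in the second pool. Rods had a median of -0.023, cones -0.053 and endothelium -0.14. Cornea and conjunctiva markers had a median of -0.53 and skeletal muscle -0.25.

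The pools also differed in sex-linked and technical measures. Xist had an intensity of 7055 in the wild-type pool and 4357 in the second, and the Y-linked Uty 78.2 and 157. Nsdhl and Ebp are on the X chromosome. Neither was among the 10 genes past 1.2-fold, so the count without them, 10 of 23, could not fall. Whether sex affects the other genes was not tested. Among the 18 probe sets of hybridisation spike-ins, the median difference was 0.099 and 17 lay above 0, a shift between the differences of Ebp and Sc5d. The 24 probe sets of labelling spike-ins went both ways, from -0.18 to 0.33 with 15 above 0 and a median of 0.046, so that the range of these technical probes passed 1.2-fold. The 3' to 5' signal ratio, a sign of RNA integrity, was 1.49 and 1.44 for beta-actin, 0.973 and 0.942 for Gapdh and 3.07 and 2.93 for transferrin receptor. For pyruvate carboxylase it was 3.94 and 3.98, the one of the 4 that was higher on the array labelled knockout. With 1 pool of each kind, effects of genotype, sex, tissue dissection and array cannot be told apart.

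**Figure D4:**
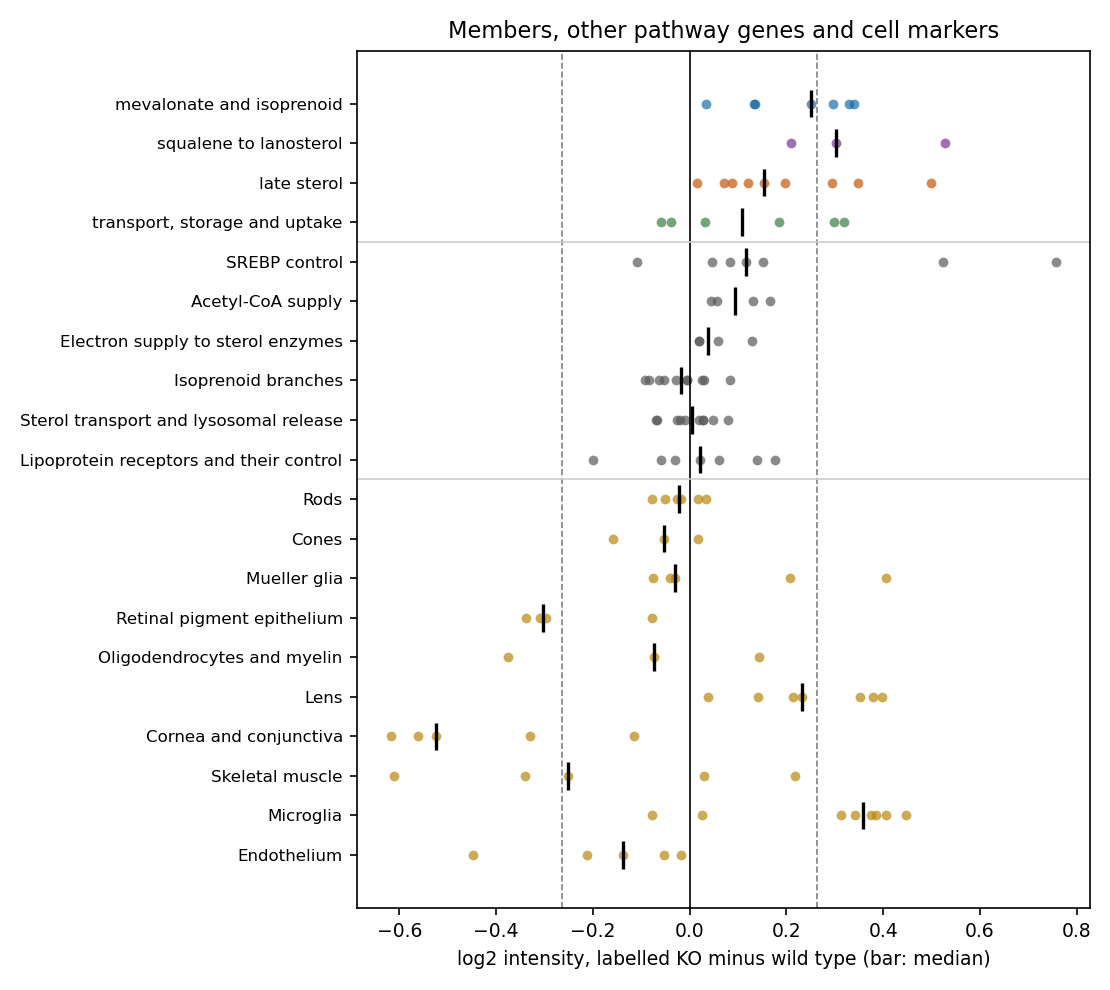
Difference in log2 intensity, array labelled knockout minus wild type, of every measured gene (points) and the median (black bar) for the 4 steps, 6 lists of other pathway genes (grey) and 10 lists of cell markers (gold); dashed lines mark 1.2-fold. The medians of the first 3 rows lie at 0.25, 0.30 and 0.15, those of the last 3 pathway lists between -0.017 and 0.021, and the microglia median at 0.36.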

How the data were processed

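RNA of eye cups from 1 wild-type pool and 1 Mfsd2a KO pool was read on 2 arrays. The deposited values are intensities on a linear scale for 45101 probe sets. Per the submitters' processing notes the authors used Partek 6.6 and RMA (background correction, equalised array distributions, 1 value per probe set), with order and settings not given in the sources used here. Such values understate differences of dim probe sets, and a global shift between pools is lost. The number of arrays limits the precision. Log2 differences were computed, and a gene was represented by its brightest probe set (mean of both arrays), out of 34945 with 1 symbol in the platform annotation other than the 64 controls (932 had several symbols and 9211 none). Of 18193 genes, 11568 reached the floor, the 50th percentile of an array without controls. No test was made. Calls are by size of difference.

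All 28 listed genes are accounted for. Values of both arrays are given for genes past 1.2-fold, pairs that share a role, and most others. Of each other list, up to 4 genes with the largest absolute difference could be named, beside markers that check the tissue. The genes, lists, motifs and size of 1.2-fold were chosen with earlier results of these data known. Alternatives were other sizes, a floor at the 70th percentile or none, means of probe sets, no _s_at or _x_at probe sets, and removal of a loess trend (span 0.3, 3 iterations) or of the median. Medians of probe sets above the floor and counts without X-linked genes were added after seeing the data. Python 3.11.15, numpy 2.4.6, pandas 2.3.3 and statsmodels 0.14.6 were used, and the steps were tested on simulated data. Protein sequences were not used here.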

Additional observations from a re-analysis of the deposited data

Results flagged for a closer look

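Probe sets other than the brightest of a gene do not enter the counts by gene, and 2 of them, both above the floor, were at least 1.5-fold higher on the array labelled knockout, a size that 0 of the 25 genes reached by their brightest probe set. The dimmer probe set of Idi1 had intensities of 240 (wild type) and 378 (labelled knockout), 0.654 apart in log2, against 0.34 in the brightest. A dimmer probe set of Stard4 read 125 and 202, a log2 difference of 0.688, against 0.32. Which transcripts these probe sets read was not analysed here, and neither difference has a replicate.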

How the results depend on the processing

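No paired analysis was possible because the wild-type and knockout groups hold 1 array each. The count of 10 genes at least 1.2-fold higher became 2 at 1.3-fold (0.64% of all measured genes) and 0 at 1.5-fold (0.138%). It was 15 at 1.1-fold, against 9.83% of all measured genes. It was 8 of 20 once the floor was raised to the 70th percentile (1.17% of all genes so measured) and 7 with the mean of probe sets (1.34%). It was 11 with the median of those above the floor (1.62%), and 10 in the other alternatives run (1.55% to 2.23%). Of the 10 genes, 8 were shared at the higher floor, 6 with the mean and 9 without _s_at and _x_at probe sets, where Mvd left at 0.26 and Hmgcs1 entered at 0.31. With the mean, Fdps (0.15), Fdft1 (0.034), Lss (0.23) and Msmo1 (0.24) no longer passed, each through a probe set under the floor. No gene was at least 1.2-fold lower in any alternative, 1.1-fold included (6.6% of all measured genes). The median difference ran from 0.14 to 0.21. A change of a single gene was set against the SD between probe sets, 0.089, since there were no replicates; the spread of the median itself was not estimated.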
